A study of Mus musculus with 6 samples.

Results

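The calcium pumps and IP3 receptors of the testis were described from 10 genes, picked by gene name from a deposited table of 55711 entries. They are the SERCA pumps Atp2a2 and Atp2a3, the PMCA pumps Atp2b1, Atp2b2 and Atp2b4, the SPCA pumps Atp2c1 and Atp2c2, and the IP3 receptors Itpr1, Itpr2 and Itpr3. Each matched 1 entry. RNA of mouse testis on the C57BL6 background was sequenced in 3 libraries labelled Tmc7 knockout (KO1 to KO3) and in 3 libraries of heterozygous controls (Ctrl1 to Ctrl3), so that the controls also carry a changed Tmc7 allele. The labels describe neither the allele nor the age of the mice. They also leave unsaid whether each library is a mouse of its own, and a p-value here measures the spread between libraries, some of which may be technical.

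Calcium pumps are P-type ATPases that spend ATP to move calcium out of the cytosol. SERCA pumps fill the endoplasmic reticulum (ER), SPCA pumps fill the Golgi with calcium and manganese, and PMCA pumps push calcium out through the plasma membrane. IP3 receptors work the other way: they are tetrameric channels of the ER membrane that open when IP3, made by phospholipase C, binds them. In sperm, calcium governs flagellar beating and the release of the acrosome, a vesicle built from Golgi membrane.

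Tmc7, which encodes a transmembrane channel-like protein, was at 43.8, 41.9 and 35.1 FPKM in KO1 to KO3, against 39.1, 37.7 and 37.2 FPKM in Ctrl1 to Ctrl3. FPKM counts sequenced fragments per kilobase of gene length and corrects for the size of the library. The deposited length was that of all annotated exons together, for example 15218 bases for Atp2b1 and 18319 for Itpr1. It is not the length of the transcript expressed, so levels of different genes compare only roughly. The targeted transcript was therefore not lower in the libraries labelled KO and does not check their labels, and every direction given for these libraries rests on the labels. The libraries held 17059486 to 19343479 reads, as recovered from the deposited values.

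The pumps share the catalytic site that gives P-type ATPases their name, an aspartate that takes up the phosphate of ATP. The 45 coding bases around that codon are shown for 6 of the pumps, because they let the families be compared at the site that does the work and show how far the genes can be told apart by sequence. They are printed 5′ to 3′ on the coding strand from GENCODE M21 transcripts (GRCm38), and capitals mark the 23 positions that are identical in these 6 genes.
Atp2a3 (chr11:72975591-72975635, plus strand): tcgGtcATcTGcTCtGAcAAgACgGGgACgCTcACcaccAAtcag
Atp2b1 (chr10:98999802-98999846, plus strand): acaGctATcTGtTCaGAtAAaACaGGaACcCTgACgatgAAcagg
Atp2b2 (chr6:113789888-113789932, minus strand): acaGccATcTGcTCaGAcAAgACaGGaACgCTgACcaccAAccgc
Atp2b4 (chr1:133731798-133731842, minus strand): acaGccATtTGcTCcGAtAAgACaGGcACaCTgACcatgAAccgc
Atp2c1 (chr9:105445263-105445307, minus strand): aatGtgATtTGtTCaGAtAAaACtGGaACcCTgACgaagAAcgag
Atp2c2 (chr8:119742601-119742645, plus strand): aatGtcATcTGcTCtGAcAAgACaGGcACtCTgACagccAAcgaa

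For the IP3 receptors the 45 coding bases around the selectivity filter of the channel pore are shown for the same reason. Capitals mark the 25 positions identical in the 3 genes.
Itpr1 (chr6:108518776-108518820, plus strand): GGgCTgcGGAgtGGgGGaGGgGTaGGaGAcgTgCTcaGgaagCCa
Itpr2 (chr6:146158896-146158940, minus strand): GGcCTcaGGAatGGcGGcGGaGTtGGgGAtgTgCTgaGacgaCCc
Itpr3 (chr17:27118619-27118663, plus strand): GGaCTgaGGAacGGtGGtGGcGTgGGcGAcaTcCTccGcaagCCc

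Even at these conserved sites the bases differ often between paralogues. Atp2b2 and Atp2b4 were identical at 38 of the 45 positions, Atp2c1 and Atp2c2 at 31, and Itpr1 and Itpr3 at 31. Over whole transcripts, at most 0.263% of the distinct 31-base words of any of the 10 genes occurred in another of them. Little sequence is thus shared among the 10 genes. Of the words of Atp2a2, 5.42% occurred in transcripts of other genes, most of them in Gm30970 (4.26%), and overlaps of Atp2c1 and Itpr3 with genes on the opposite strand are given beside their values.

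Atp2a2 was by far the most abundant of the 10 genes, Atp2b4 came next, and the other 8 lay below 4 FPKM in every library. The mean over the 6 libraries was 47.5 ± 2.98 FPKM for Atp2a2, 16.5 ± 1.42 for Atp2b4, 3.57 ± 0.248 for Atp2c1, 2.70 ± 0.332 for Itpr3, 2.47 ± 0.526 for Itpr1, 1.80 ± 0.242 for Atp2b1, 1.31 ± 0.140 for Itpr2, 0.852 ± 0.186 for Atp2c2, 0.743 ± 0.131 for Atp2a3 and 0.200 ± 0.0289 for Atp2b2 (SD, n = 6). The highest mean was 237 times the lowest. Atp2a2 lay above 92.8% of the 19168 genes that were tested, Atp2b4 above 80.6% and Atp2a3 above 9.39%.

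Some neighbours in this order did not differ beyond their spread. Itpr3 and Itpr1 overlapped in range and stood in this order in 5 of 6 libraries. Atp2c2 and Atp2a3 overlapped as well, with this order in 4 of 6 libraries. The ranges of Itpr1 and Atp2b1, and of Itpr2 and Atp2c2, overlapped between libraries although the order held within each of the 6. The remaining neighbours were separated in range. For Atp2c1 over Itpr3 the gap was narrow, with a lowest value of 3.21 against a highest of 3.002 FPKM. Both overlap genes on the opposite strand, and the part of these in the order was not tested.

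**Figure D1:**
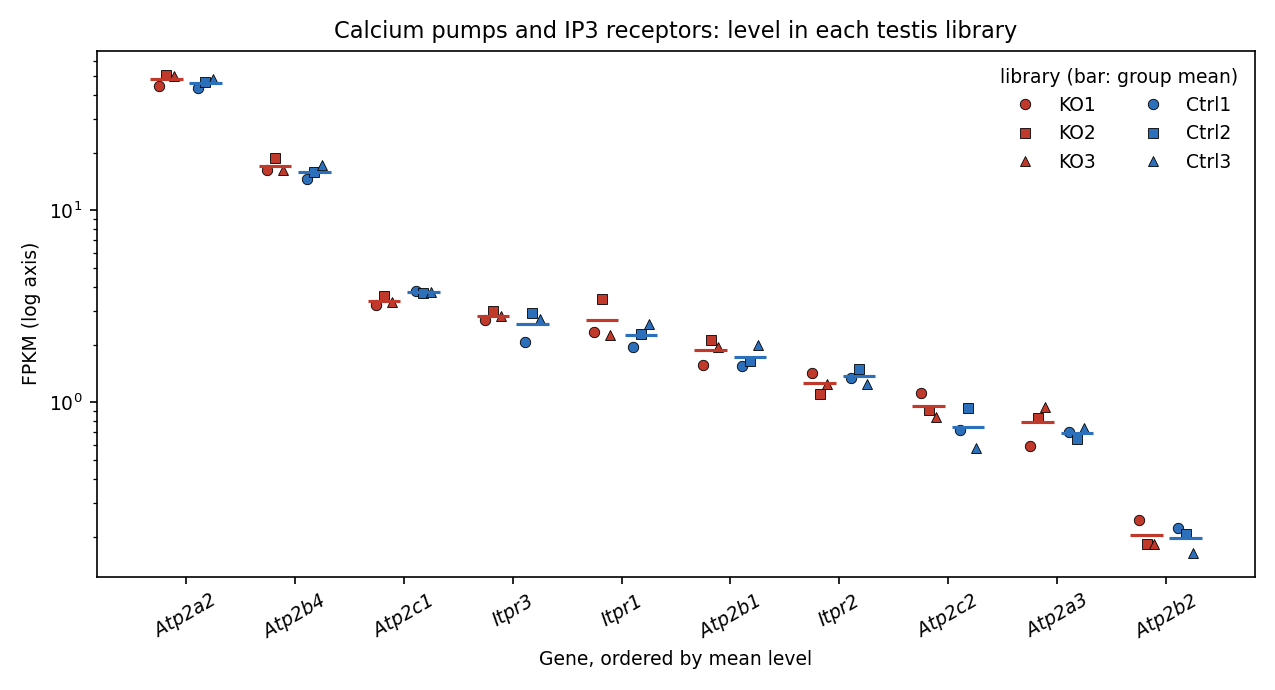
FPKM (log axis) of each of the 10 genes in each library, ordered by mean level, with libraries labelled KO left of controls and a bar at each group mean. Atp2a2 lies between 43.7 and 51.0 FPKM and Atp2b2 between 0.165 and 0.243 FPKM, and only Atp2c1 has no overlap between the groups.

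None of the 10 genes was called different between the libraries labelled KO and the controls. By limma-trend on log2(FPKM + 1), with Benjamini-Hochberg adjustment over all 19168 genes and a threshold of 0.05, 0 of the 9 tested genes were higher and 0 lower, against 0% called in either direction over the whole table. Atp2b2 fell under the minimum mean of 0.5 FPKM and was not tested. At an unadjusted p under 0.05 the count was again 0 of 9, against 3.87% of all genes tested. By limma-voom on the recovered reads 0 of 10 passed either before or after adjustment, where the background was 3.8% at an unadjusted p under 0.05 and, after adjustment, 0.00486% (1 gene) lower and 0% higher. The limma adjusted p of the 9 genes ran from 0.868 to 0.910, and their 95% intervals together spanned 0.789-fold to 1.45-fold on the FPKM + 1 scale.

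The tested genes had a median log2 difference of 0.07 (KO minus control), beside -0.01 for all genes tested, with 7 of 9 values above 0, beside 48.6% of all genes tested. Atp2c1 alone of the 9 had no overlap between the groups, beside 8.56% of all genes tested. The added pseudocount of 1 FPKM shrinks log2 differences of weakly expressed genes.

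SERCA pumps load the ER. Atp2a2 encodes SERCA2, the widely expressed pump whose cardiac form refills the muscle store after each beat, and lies on chromosome 5 from 122453513 to 122502225 in GRCm38. It was at 44.7, 51.0 and 50.4 FPKM in KO1 to KO3, against 43.7, 46.9 and 48.6 FPKM in Ctrl1 to Ctrl3. The lowest value of each group was in library 1, and the groups overlapped. The means were 48.7 ± 3.47 FPKM in the libraries labelled KO and 46.4 ± 2.49 FPKM in controls (SD, n = 3 each), a log2 difference of 0.07 ± 0.09 (SE) and a 95% interval from -0.15 to 0.29 (limma adjusted p = 0.885). Between 4367 and 5970 reads per library lay behind these values.

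Atp2a3 encodes SERCA3, best known from blood and epithelial cells. It was at 0.591, 0.830 and 0.952 FPKM in KO1 to KO3, against 0.702, 0.644 and 0.739 FPKM in Ctrl1 to Ctrl3. The libraries labelled KO held both the lowest and the highest value, and only 59 to 98 reads per library supported them. The log2 difference was 0.07 ± 0.12 (SE) (limma adjusted p = 0.907). Atp2a3 made up 1.59 ± 0.275% of the summed FPKM of Atp2a2 and Atp2a3 in the libraries labelled KO and 1.48 ± 0.115% in controls (SD, n = 3 each).

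PMCA pumps export calcium from the cell. Atp2b4 encodes PMCA4, the main pump of the sperm flagellum in the mouse, where its loss leaves sperm immotile and males infertile. The gene lies on chromosome 1 from 133699457 to 133801041. It was at 16.2, 18.8 and 16.2 FPKM in KO1 to KO3, against 14.6, 15.8 and 17.2 FPKM in Ctrl1 to Ctrl3. KO2 was the highest and Ctrl1 the lowest library, and Ctrl3 lay above KO1 and KO3. The log2 difference was 0.10 ± 0.10 (SE) and a 95% interval from -0.14 to 0.34 (limma adjusted p = 0.868).

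Atp2b1 encodes PMCA1, the housekeeping form that mouse embryos cannot do without. It was at 1.56, 2.11 and 1.94 FPKM in KO1 to KO3, against 1.55, 1.64 and 1.99 FPKM in Ctrl1 to Ctrl3. The groups overlapped almost wholly, and the log2 difference was 0.07 ± 0.13 (SE) (limma adjusted p = 0.910). Atp2b2, which encodes the PMCA2 of auditory hair cells, was at 0.243, 0.183 and 0.183 FPKM in KO1 to KO3, against 0.222, 0.206 and 0.165 FPKM in Ctrl1 to Ctrl3, with 40 to 58 reads per library. By limma-voom its log2 difference was 0.05 with a 95% interval from -0.53 to 0.62 (adjusted p = 0.977).

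Of the summed FPKM of Atp2b1, Atp2b2 and Atp2b4, Atp2b4 held 89.2 ± 0.790% in the libraries labelled KO and 89.2 ± 0.356% in controls. Atp2b1 held 9.75 ± 0.988% and 9.69 ± 0.529% (SD, n = 3 each). The sum leaves out Atp2b3, a further PMCA gene, which averaged 1.10 FPKM over all libraries, so shares of all PMCA RNA are lower. These shares moved by less than the spread between libraries.

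SPCA pumps load the Golgi, the compartment that the series title ties to TMC7. Atp2c1 encodes SPCA1, mutated in Hailey-Hailey skin disease in humans, and lies on chromosome 9 from 105403539 to 105527319. It was at 3.21, 3.60 and 3.32 FPKM in KO1 to KO3, against 3.79, 3.73 and 3.76 FPKM in Ctrl1 to Ctrl3. All 3 libraries labelled KO lay below all 3 controls, a pattern found in 4.41% of all genes tested. The means were 3.38 ± 0.205 and 3.76 ± 0.0337 FPKM (KO and control, SD, n = 3 each), a log2 difference of -0.12 ± 0.09 (SE) and a 95% interval from -0.34 to 0.10 (limma adjusted p = 0.868). With each library left out in turn the log2 difference was -0.16 to -0.09. Since the groups did not overlap, leaving out 1 library could not reverse its direction.

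The value of Atp2c1 is uncertain, because 18.9% of its exonic bases overlap Aste1, a gene on the opposite strand, and whether the counting used strand is not stated in the labels. Aste1 was at 10.8, 9.62 and 8.72 FPKM in KO1 to KO3, against 10.9, 10.5 and 9.36 FPKM in Ctrl1 to Ctrl3. Its groups overlapped, and its log2 difference was -0.08 ± 0.11 (SE) (limma adjusted p = 0.890). The part of Aste1 reads in the Atp2c1 values was not tested.

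Atp2c2 encodes SPCA2, a pump of secretory epithelia such as the mammary gland. It was at 1.12, 0.913 and 0.844 FPKM in KO1 to KO3, against 0.717, 0.939 and 0.581 FPKM in Ctrl1 to Ctrl3. KO1 was the highest library and Ctrl2 lay above both KO2 and KO3. The log2 difference was 0.17 ± 0.13 (SE) (limma adjusted p = 0.868). With 36 to 68 reads per library the size depended on the scale: it was 0.34 at a pseudocount of 0.1 FPKM and 0.38 by limma-voom, with a 95% interval from -0.21 to 0.97 (adjusted p = 0.858).

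Atp2c1 thus held 77.9 ± 3.22% of the SPCA FPKM in the libraries labelled KO and 83.5 ± 3.40% in controls. All 3 libraries labelled KO lay below all 3 controls, though KO2 at 79.8% and Ctrl2 at 79.9% nearly met. The ratio of Atp2a2 to Atp2c1 FPKM was 13.9, 14.1 and 15.2 in KO1 to KO3, against 11.5, 12.6 and 12.9 in Ctrl1 to Ctrl3. The share and the ratio were singled out after the values were seen and carry the same uncertainty as Atp2c1. The share also carries that of Atp2c2, which rests on 36 to 68 reads per library.

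**Figure D2:**
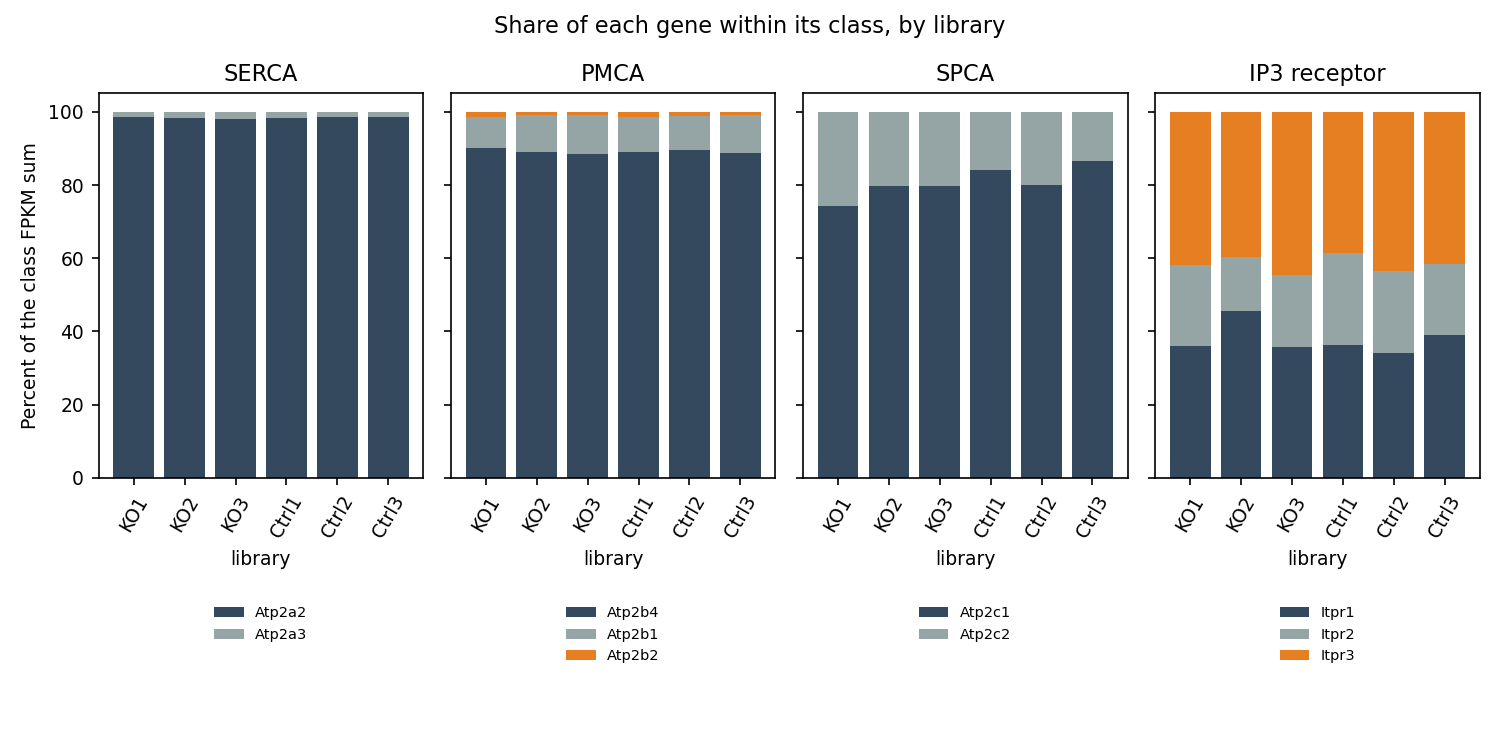
Percent of the FPKM sum of each class held by each gene, 1 bar per library, with the libraries labelled KO left of the controls. The sums cover only the genes shown and leave out Atp2a1 (SERCA) and Atp2b3 (PMCA). Atp2a2 holds 98.1% to 98.7% of the SERCA sum and Atp2b4 88.4% to 90.0% of the PMCA sum, while no IP3 receptor gene reaches 46%.

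IP3 receptors release stored calcium. No gene dominated this class: Itpr3 held 42.0 ± 2.48% of its FPKM in the libraries labelled KO and 41.2 ± 2.50% in controls, Itpr1 held 39.1 ± 5.72% and 36.5 ± 2.55%, and Itpr2 held 18.8 ± 3.78% and 22.3 ± 2.96% (SD, n = 3 each). The summed level of the 3 genes was 6.77 ± 0.703 FPKM in the libraries labelled KO and 6.19 ± 0.728 FPKM in controls. The sum of Atp2a2 and Atp2a3 was between 6.84 and 8.28 times the IP3 receptor sum over the 6 libraries.

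Itpr1 encodes the receptor best known from cerebellar Purkinje cells, whose loss causes ataxia in mice, and lies on chromosome 6 from 108213096 to 108551109. It was at 2.32, 3.47 and 2.25 FPKM in KO1 to KO3, against 1.94, 2.28 and 2.55 FPKM in Ctrl1 to Ctrl3. KO2 stood apart, and the other libraries of the groups were mixed. The log2 difference was 0.16 ± 0.16 (SE) and a 95% interval from -0.21 to 0.53 (limma adjusted p = 0.868), and it was 0.01 without KO2.

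Itpr3, the form of epithelial and taste cells, lies on chromosome 17 from 27057304 to 27122223. It was at 2.70, 3.002 and 2.81 FPKM in KO1 to KO3, against 2.06, 2.91 and 2.72 FPKM in Ctrl1 to Ctrl3. Ctrl1 was the low library, and without it the log2 difference of 0.11 (standard error 0.12, limma adjusted p = 0.872) became 0.01. Its exons share 233 bases with Itpr3os on the opposite strand, which was far more abundant, at 47.3, 32.0 and 27.1 FPKM in KO1 to KO3 against 58.3, 47.3 and 24.8 FPKM in Ctrl1 to Ctrl3. Itpr3os had a log2 difference of -0.24 ± 0.33 (SE) (limma adjusted p = 0.885), and its part in the Itpr3 values was not tested.

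Itpr2, which in mice acts with Itpr3 in exocrine secretion, was at 1.42, 1.11 and 1.24 FPKM in KO1 to KO3, against 1.35, 1.503 and 1.26 FPKM in Ctrl1 to Ctrl3. The groups overlapped, and the log2 difference was -0.07 ± 0.11 (SE) (limma adjusted p = 0.905). It was the lowest of the 3 receptor genes in every library.

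**Figure D3:**
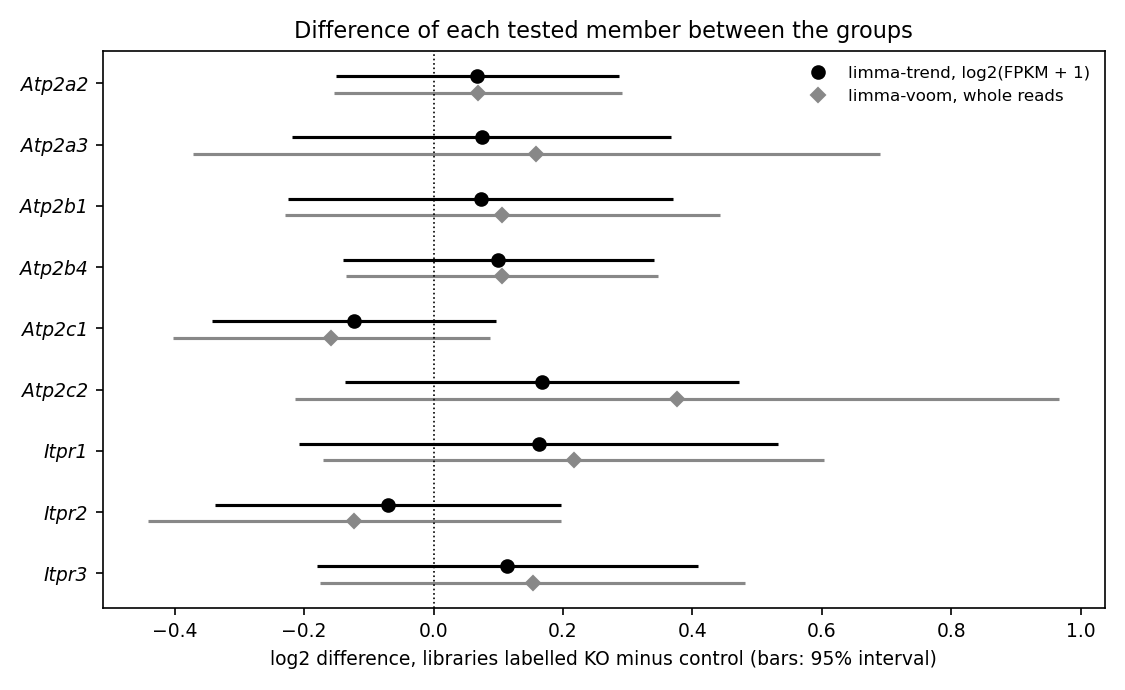
Log2 difference (libraries labelled KO minus control) of the 9 tested genes with 95% intervals, by limma-trend on log2(FPKM + 1) in black and by limma-voom on whole reads in grey. All 18 intervals include 0, with Atp2c1 and Itpr2 the genes below 0.

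Cell types bear on these levels, since a whole testis was sequenced and fewer cells of a type cannot be told apart from less RNA per cell. Testis markers were present, with none of the 91 listed at 0 in all libraries. All 10 round spermatid markers and all 12 markers of elongating and elongated spermatids had lower mean log2 values in the libraries labelled KO. Higher ones were found for 11 of 12 Sertoli, 7 of 7 tested peritubular myoid and 9 of 10 macrophage markers, beside 48.6% of all genes tested. None of the markers was called. The groups overlapped in all of these spermatid and myoid markers. They were apart in 1 Sertoli, 1 macrophage and 1 pachytene spermatocyte marker, beside 8.56% of all genes tested. Markers of the same cell type are not independent of each other. Of the 9 endothelial markers tested 8 were higher and 1 was lower, and of the 9 Leydig cell markers 3 were higher and 6 lower, with a median log2 difference of -0.18. The spermatogonia markers split into 5 higher and 5 lower, and the pachytene spermatocyte markers into 4 higher and 6 lower. The summed elongated spermatid markers ranged from 9091 to 17557 FPKM in the libraries labelled KO and from 12108 to 20668 FPKM in controls, and the summed Sertoli markers from 455 to 579 FPKM and from 458 to 482 FPKM. The part of these shifts in the values of the pumps and receptors was not tested.

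The wider calcium-handling machinery was also without a call. Of 99 listed genes in 8 groups, 96 matched the table and 75 were tested. By limma-trend 0 were higher and 0 lower after adjustment. Of the 75, 1 had an unadjusted p under 0.05, beside 3.87% of all genes tested. By limma-voom 84 of the related genes were tested, 0 passed and 2 had an unadjusted p under 0.05, beside 3.8% of all genes tested. Among the 75 genes tested by limma-trend the median log2 difference was 0.02, with 44 values above 0 and 31 below. In 7 of them the groups did not overlap, beside 8.56% of all genes tested.

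Among partners of the pumps, basigin (Bsg), a subunit of PMCA pumps, was at 266 ± 16.5 FPKM in the libraries labelled KO and 249.8 ± 18.4 FPKM in controls. Calm2 and Calm3 encode calmodulin, which switches PMCA pumps on. Calm2 was at 294 ± 47.0 FPKM in the libraries labelled KO and 337 ± 15.4 FPKM in controls, and Calm3 was at 189 ± 12.8 and 175 ± 10.2 FPKM (SD, n = 3 each). Each had a limma adjusted p of at least 0.868.

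Among regulators of IP3 receptors, Tmem203, an ER membrane protein needed for spermatid maturation in mice, was at 13.2, 16.5 and 19.3 FPKM in KO1 to KO3, against 14.1, 12.5 and 13.0 FPKM in Ctrl1 to Ctrl3. KO1 lay among the controls, and the log2 difference was 0.27 ± 0.14 (SE) (limma adjusted p = 0.868). It was 0.41 without KO1 (limma adjusted p = 0.166) and 0.15 without KO3 (limma adjusted p = 0.999). Ahcyl1, or IRBIT, which competes with IP3 for the receptor, was at 14.4 ± 0.361 FPKM in the libraries labelled KO and 14.7 ± 0.190 FPKM in controls. Grina was at 175 ± 7.95 and 166 ± 12.6 FPKM.

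Of the enzymes that make and remove IP3, Plcz1, the sperm phospholipase that sets off calcium waves in the egg, was the most abundant. It was at 102, 61.9 and 49.1 FPKM in KO1 to KO3, against 101, 95.3 and 72.3 FPKM in Ctrl1 to Ctrl3, with a log2 difference of -0.38 ± 0.27 (SE) (limma adjusted p = 0.868). KO1 was level with Ctrl1, and KO2 and KO3 were the lowest of the 6. Plcd4, a phospholipase C needed for the acrosome reaction of mouse sperm, was at 17.8 ± 2.41 FPKM in the libraries labelled KO and 19.3 ± 0.792 FPKM in controls, and Itpk1, an inositol phosphate kinase, at 16.8 ± 0.536 and 17.4 ± 0.929 FPKM. Impa1, which recycles inositol, was at 9.78, 9.38 and 7.77 FPKM in KO1 to KO3, against 9.85, 10.4 and 10.3 FPKM in Ctrl1 to Ctrl3. The groups were narrowly apart, with all libraries labelled KO below all controls, as for 4.41% of all genes tested. The log2 difference was -0.17 ± 0.10 (SE) (limma adjusted p = 0.868). Without KO3 the log2 difference of Impa1 was -0.08.

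Ryr1, the calcium release channel of skeletal muscle and a distant relative of the IP3 receptors, had the smallest unadjusted p of the 75 genes. It was at 1.59, 2.08 and 1.44 FPKM in KO1 to KO3, against 0.874, 0.977 and 0.786 FPKM in Ctrl1 to Ctrl3. The groups did not overlap, with all libraries labelled KO above all controls, as for 4.15% of all genes tested. The log2 difference was 0.52 ± 0.13 (SE), which did not pass adjustment (limma unadjusted p = 0.00479, adjusted p = 0.868). By limma-voom it was 0.94 ± 0.16 (SE) (adjusted p = 0.578). Ryr2 and Ryr3 were under the test's minimum, at 0.0384 ± 0.0258 and 0.424 ± 0.0615 FPKM in the libraries labelled KO and 0.0188 ± 0.00385 and 0.462 ± 0.0762 FPKM in controls.

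Store-operated entry refills the ER from outside the cell. Stim1, the ER calcium sensor, was at 23.5 ± 2.36 FPKM in the libraries labelled KO and 22.0 ± 1.29 FPKM in controls. Its channel Orai1 was at 16.0 ± 2.53 and 14.5 ± 0.443 FPKM, and Orai3 at 3.31 ± 0.580 and 3.06 ± 0.308 FPKM. All 6 tested genes of this group had log2 differences above 0, beside 48.6% of all genes tested. In each of them the libraries labelled KO and the controls overlapped, and none passed. Of the sodium-calcium exchangers, Slc8a2 was at 15.9 ± 2.30 FPKM in the libraries labelled KO and 14.7 ± 1.39 FPKM in controls, Slc24a3 at 5.40 ± 0.635 and 4.81 ± 0.230 FPKM, and Slc8a1, the heart exchanger, at 1.005 ± 0.243 and 1.04 ± 0.153 FPKM.

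In the mitochondrial group, Micu2, which gates the calcium uniporter, was at 8.71, 10.1 and 8.80 FPKM in KO1 to KO3, against 7.77, 8.30 and 8.15 FPKM in Ctrl1 to Ctrl3. All libraries labelled KO lay above all controls, a pattern of 4.15% of all genes tested, and the log2 difference was 0.17 ± 0.09 (SE) (limma adjusted p = 0.868). Smdt1, a uniporter subunit, was at 16.0 ± 1.79 FPKM in the libraries labelled KO and 15.8 ± 1.44 FPKM in controls, and Letm1 at 5.23 ± 0.718 and 4.503 ± 0.251 FPKM.

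Among the 16 listed genes for calcium-binding proteins of the ER and Golgi, the mean over the 6 libraries ran from 0.841 FPKM (Casq1) to 179 FPKM (Calr). The 3 highest were Calr, Clgn and Hspa5. Calr, or calreticulin, was at 180.02 ± 11.6 FPKM in the libraries labelled KO and 177 ± 10.1 FPKM in controls. Clgn, the germ-cell chaperone calmegin, was at 169.6 ± 19.6 and 181 ± 7.42 FPKM, and Hspa5, or BiP, at 142 ± 5.74 and 150.04 ± 12.3 FPKM. Canx, or calnexin, which folds glycoproteins, was at 46.4, 42.0 and 44.1 FPKM in KO1 to KO3, against 48.3, 47.0 and 51.5 FPKM in Ctrl1 to Ctrl3. All libraries labelled KO lay below all controls, a pattern of 4.41% of all genes tested. The log2 difference of Canx was -0.14 ± 0.09 (SE) (limma adjusted p = 0.868).

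**Figure D4:**
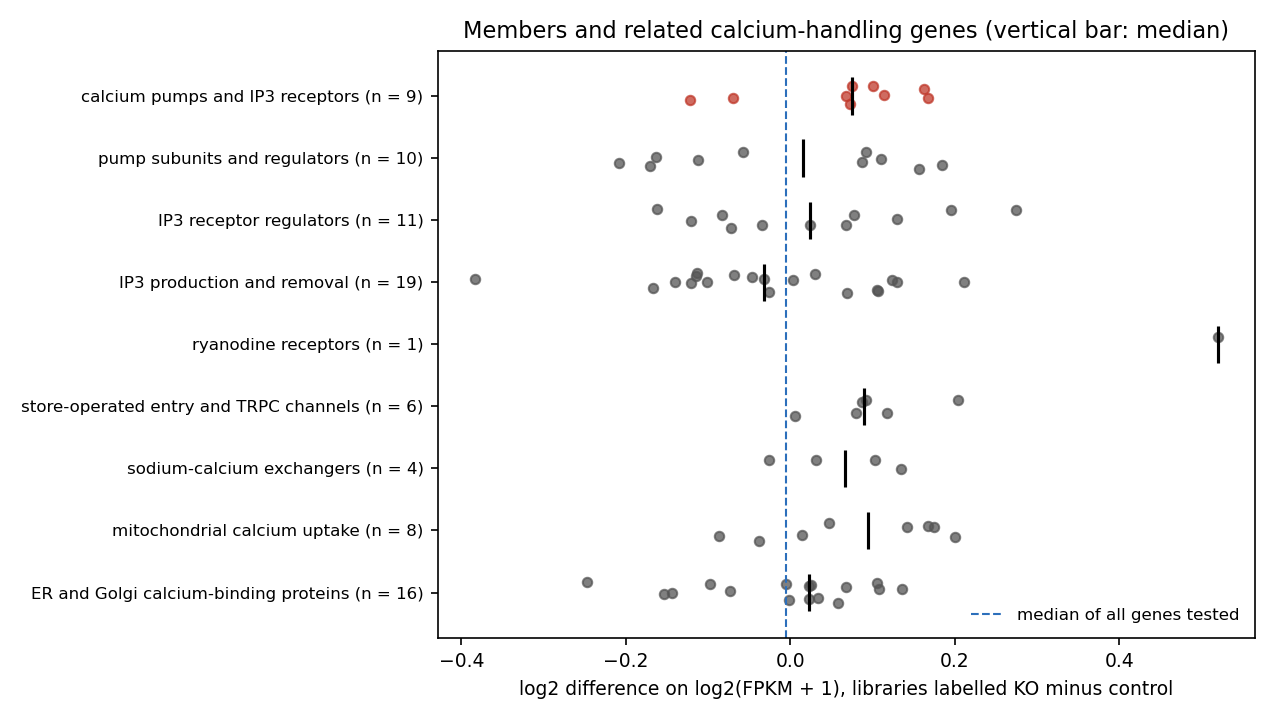
Log2 difference on log2(FPKM + 1), libraries labelled KO minus control, of the 9 tested pumps and receptors (red) and of 75 related genes in 8 groups (grey), with a bar at each median and a dashed line at the median of all genes tested. Ryr1 at 0.52 and Plcz1 at -0.38 are the outermost points, and no point passed the test.

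Genes whose levels followed those of the most abundant pumps across libraries were listed as a description. Over the 6 libraries, among 12515 other genes averaging 2 FPKM or more, Arhgap1, Dock3 and Bst2 were most like Atp2a2, with Pearson r of 0.999, 0.996 and 0.995 on log2(FPKM + 1). For Atp2b4 these were Gpd1l, Herc2 and Atf6, with r of 0.996, 0.995 and 0.994. An r over 0.9 was reached by 537 of these genes (4.29%) with Atp2a2 and by 206 (1.65%) with Atp2b4. All genes were measured in the same 6 libraries, and whether depth or cell composition has a part in these values was not tested.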

How the data were processed

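RNA was extracted with Trizol and made into libraries with a SMARTER mRNA-Seq kit, per the labels' protocols. The values are FPKM in a single table deposited by the authors, which also lists gene length and position. GRCm38 and mm10 are the builds in the submitters' processing notes. No source used here gives the aligner, counter, annotation release, strand setting or filters. Positions of all 10 genes were identical in GENCODE M21.

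Within a library, deposited FPKM multiplied by gene length fell on multiples of a fixed step (100% of values above 0, tolerance 0.01 reads), so whole reads could be recovered. The test used limma 3.58.1 (R 4.3.3) on log2(FPKM + 1) for genes averaging 0.5 FPKM or more (group as the only term, mean-variance trend, Benjamini-Hochberg adjusted p under 0.05, no minimum fold). The procedure was tested on simulated data. Alternatives were pseudocounts, filters, scalings, a replicate block, no trend, limma-voom on reads (mean of at least 10) and each library left out. Overlap of sequence was measured in 31-base words, on both strands, of GENCODE M21 transcripts. The 10 genes and all lists were chosen with earlier results of these data known. Named related genes were the 3 highest in FPKM of each group and the 2 of smallest p in each direction. The coding bases of Atp2a2 are not reported here.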

Additional observations from a re-analysis of the deposited data

How the results depend on the processing

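All 133 values of the 10 genes under 15 alternatives kept their direction, and none passed (smallest limma adjusted p 0.469, without KO1). The filters, the replicate block and the fit without trend cannot change a log2 difference, so their values repeat the main one. All alternatives reuse the same 6 libraries, so the 133 values are not independent. Over all genes the count of calls stayed at 0, except for 1 gene by limma-voom, which is none of the 10 and none of the related genes. With the replicate block 0 genes, 0 of the pumps and receptors and 0 related genes were called, and 1411 genes had an unadjusted p under 0.05, against 741 without it. Same-numbered libraries correlated in their deviations from the group means at 0.36, 0.06 and 0.28. Differently numbered libraries of the 2 groups correlated at 0.08, -0.43, -0.28, 0.22, -0.16 and -0.15. Deviations from a group mean cancel out within the group, so the values for same and different numbers are not independent. The labels do not say whether the numbers pair the samples, and the main test did not pair them. Without KO1 the count at an unadjusted p under 0.05 was 3491. Leaving out each library in turn moved the log2 difference of Atp2a2 between 0.03 and 0.13, of Atp2a3 between 0.01 and 0.16, of Atp2b1 between 0.01 and 0.15, of Atp2b4 between 0.03 and 0.16, of Atp2c2 between 0.10 and 0.25, of Itpr1 between 0.01 and 0.24, of Itpr2 between -0.12 and -0.02, of Itpr3 between 0.01 and 0.18 and of Atp2c1 between -0.16 and -0.09. Atp2c2, Atp2a3 and Atp2b2 are limited by depth, with under 100 reads in every library.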

Other observations

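A pair of pump genes outside the 10 was also measured. Atp2b3, the PMCA3 gene, was at 1.21, 1.24 and 1.19 FPKM in KO1 to KO3, against 0.845, 0.963 and 1.17 FPKM in Ctrl1 to Ctrl3, so that the groups did not overlap, with all libraries labelled KO above all controls, as for 4.15% of all genes tested. Its log2 difference was 0.16 ± 0.11 (SE) (limma adjusted p = 0.868). It was singled out after its values were seen. Atp2a1, the SERCA1 gene of fast skeletal muscle, was at 0.106, 0.0995 and 0.0885 FPKM in KO1 to KO3, against 0.210, 0.233 and 0.0748 FPKM in Ctrl1 to Ctrl3. Of the SERCA inhibitors of muscle, phospholamban (Pln) was at 0.0519 ± 0.0474 FPKM in the libraries labelled KO and 0.0746 ± 0.0323 FPKM in controls. Sarcolipin (Sln) was at 0.133 ± 0.0808 and 0.0724 ± 0.0694 FPKM, and myoregulin (Mrln) at 0.234 ± 0.198 and 0.394 ± 0.184 FPKM (SD). Atp2a1, Pln, Sln and Mrln overlapped between the groups, fell under the minimum mean of 0.5 FPKM and were not tested by limma-trend.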
